A study of Mesocricetus auratus with 14 samples.

Results

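Among 7 liver libraries of hamsters given DC371739, 4 (replicates 2, 3, 5 and 6) had a high level of acute phase and extracellular matrix transcripts and 3 (replicates 1, 4 and 7) a low one. These 7 are the members described here, of 14 libraries in all. All 14 came from the liver of golden hamsters (Mesocricetus auratus) labelled as fed a high-fat diet, 7 labelled control and 7 labelled with DC371739, a compound known here only by its code name. The sources used here give no dose, route, duration, sex or time of collection, and no label ties a sample to an animal of its own. The 4 and the 3 were chosen by the values of acute phase and matrix genes in these same libraries. The labels hold no histology or score of inflammation. The subsets are therefore called the high-score and the low-score libraries. Every difference between them is given as a description with no test, and no difference supports the split.

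The acute phase response is the change in the proteins that hepatocytes secrete when the liver receives inflammatory cytokines. Interleukin-6 acts through STAT3, and interleukin-1, tumour necrosis factor and microbial ligands of the Toll-like receptors act largely through NF-kB. Kupffer cells, the resident macrophages of the liver, are a main local source of these cytokines. Stellate cells and portal fibroblasts make most of the collagen.

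The libraries held 13672589 to 23948628 counts. Replicate 7 was the deepest DC371739 library, at 23948628 counts against 14722355 to 16627596 in the other 6, and 14.4% of its counts lay in mitochondrially encoded features against 7.71% to 8.63%. Control replicates 6 and 7 were also deep, with mitochondrial shares of 12.6% and 13.2%. Replicate 7 is shown apart wherever it decides a value. In a principal component analysis of the 7 DC371739 libraries, the first component (37% of variance) set replicate 7, at -52.4, against 3.27 to 14 in the others. The second component (20.6%) placed replicates 1, 4 and 7 at 18.2, 28.5 and 3.31 and the high-score libraries between -17.3 and -7.06. Of the 23 hepatocyte identity genes listed, 21 had a symbol in the deposited table, and all 21 passed the expression filter. Their mean level lay between 8.11 and 8.42 log2 CPM in all 14 libraries.

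Levels below are in CPM: counts were divided by library totals that had been scaled with the trimmed mean of M values (TMM), then multiplied by 1e+06. They rank a gene across libraries and are not comparable between genes of different length. The level of a list is the mean log2 CPM of its tested members. Over 19 tested acute phase genes it was 9.56, 9.46, 9.37 and 9.52 in replicates 2, 3, 5 and 6, against 9.24, 8.84 and 9.0 in replicates 1, 4 and 7. The lowest high-score library thus lay at 9.37 and the highest low-score library at 9.24, while the controls spanned 8.66 to 9.33. Over 37 matrix genes the level was 4.42, 4.46, 4.63 and 4.14 against 4.06, 3.97 and 3.95, with controls from 3.52 to 4.0. Replicates 6 and 1 were the neighbours on either side of that line, at 4.14 and 4.06.

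**Figure D1:**
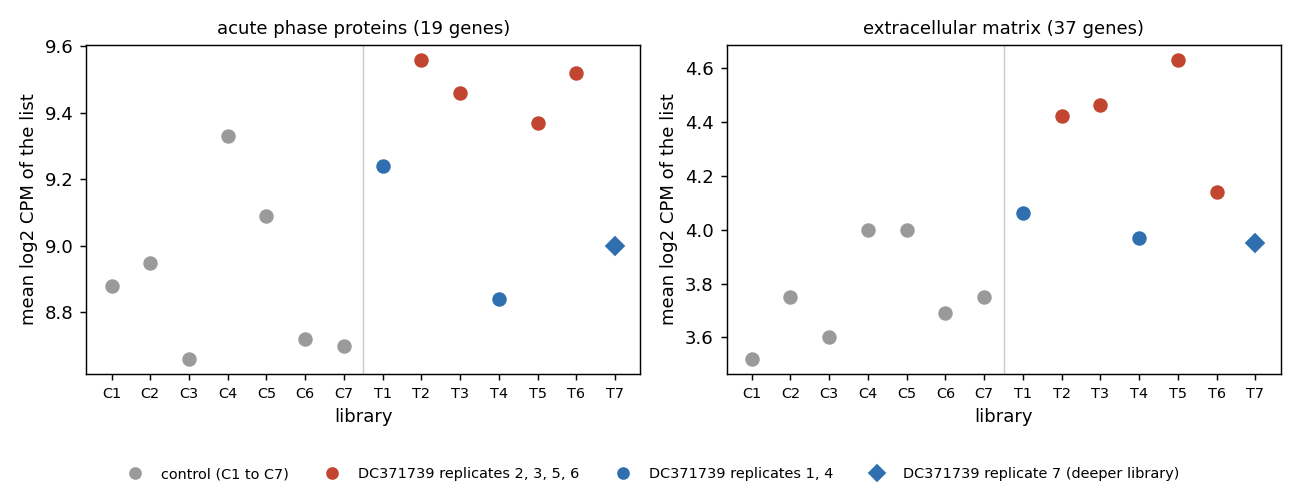
Mean log2 CPM of the acute phase list (left, 19 genes) and the extracellular matrix list (right, 37 genes) in each of 14 libraries, C for control and T for DC371739 with the replicate number. The 4 high-score libraries sit above the other 3 DC371739 libraries in both panels, the nearest neighbours being 9.37 and 9.24 on the left and 4.14 and 4.06 on the right, and control replicate 4 reaches 9.33 on the left.

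Steap4, a metalloreductase induced by inflammatory cytokines, stood at 368, 301, 216 and 346 CPM in replicates 2, 3, 5 and 6. It was at 156, 98.4 and 99.8 CPM in replicates 1, 4 and 7 and between 47.6 and 110 CPM in controls. Tlr2, the receptor for bacterial lipoproteins, read 9.66, 16.7, 13.2 and 15.7 CPM against 6.16, 4.99 and 3.74 CPM, with controls between 2.14 and 3.97 CPM. Both genes separated the subsets, by 1.39 and 1.45 in mean log2 CPM, and all 4 high-score libraries were above every control. Timp1, an inhibitor of matrix metalloproteinases, did not: it read 4.95, 5, 8.38 and 3.73 CPM against 2.94, 2.03 and 3.74 CPM, so that replicate 7 lay just above replicate 6. Of the 3 genes named to mark the split, Timp1 alone overlapped. On these values its overlap rested on replicates 6 and 7, and leaving either of them aside removed it. Steap4 lies on scaffold KB708285.1 (944672 to 965737, minus strand), Tlr2 on KB708224.1 (446077 to 451794, minus strand) and Timp1 on KB708324.1 (411231 to 415719, minus strand), all as spans of annotated exons in a build not given in the sources used here.

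**Figure D2:**
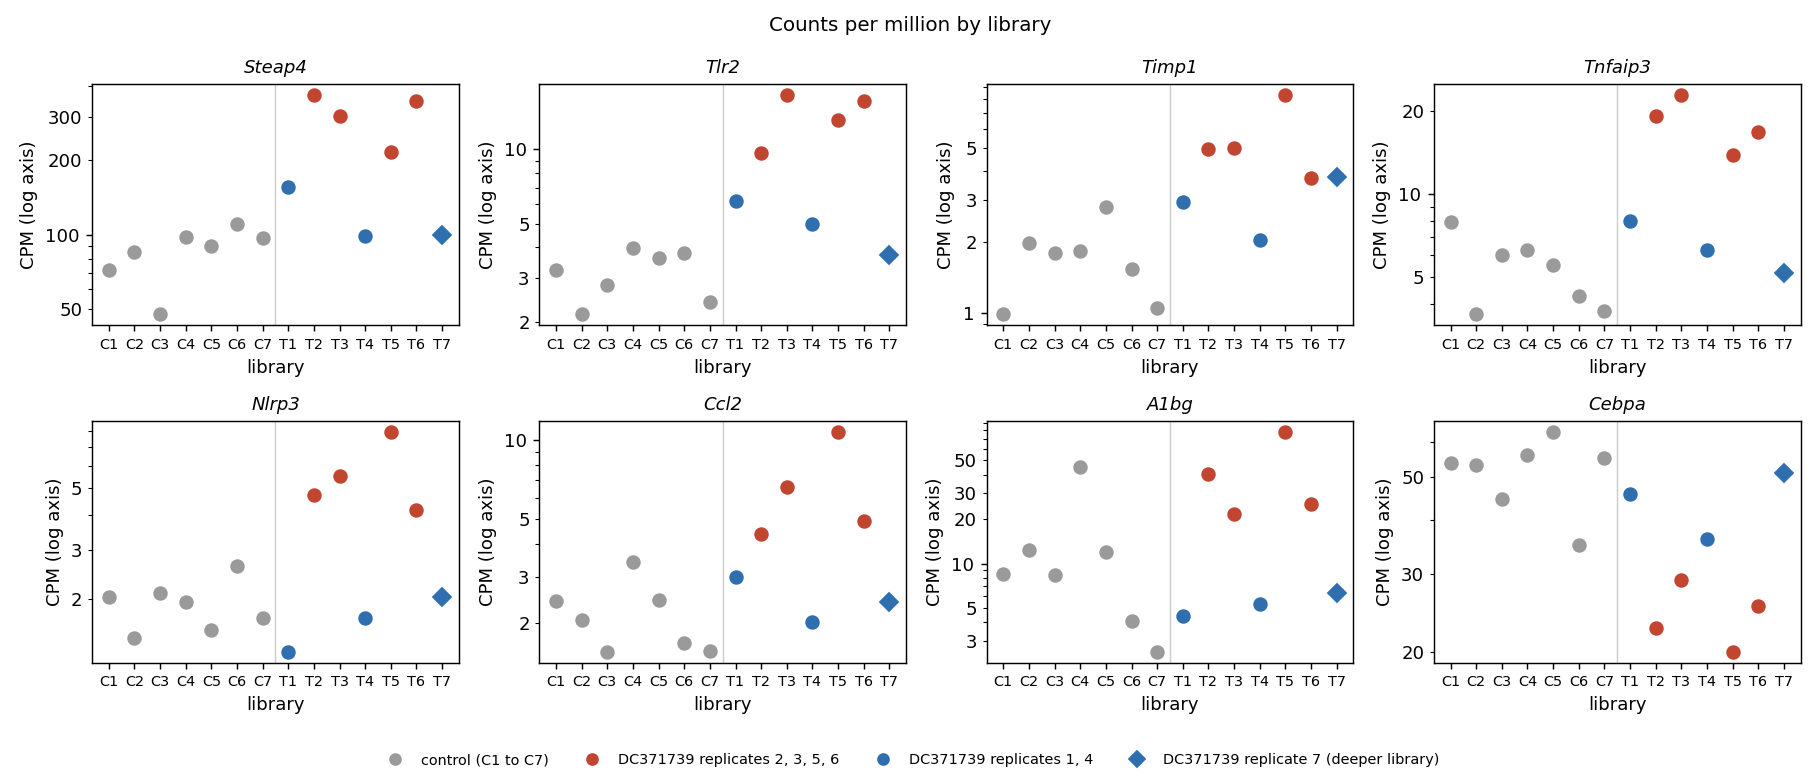
CPM (log axis) of 8 genes in each of 14 libraries, 1 point per library, C for control and T for DC371739. Steap4, Tlr2, Tnfaip3, Nlrp3, Ccl2 and A1bg are higher, and Cebpa lower, in replicates 2, 3, 5 and 6 than in replicates 1, 4 and 7, whereas for Timp1 replicates 6 and 7 overlap at 3.73 and 3.74 CPM.

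Of 12166 genes tested, 651 (5.35%) had all 4 high-score libraries above all 3 low-score ones, and 774 (6.36%) had all 4 below. With scaling by library size alone these counts were 1183 and 323, and the median difference over all genes moved from 0.02 to 0.11 in log2. With a difference of at least 1 in mean log2 CPM as well, 78 genes were higher (0.641%) and 17 lower (0.14%). Of the 651, 230 (1.89% of all genes) were also above all 7 controls in each high-score library, and of the 774, 248 (2.04%) were below all 7 controls. Among the low-score libraries, replicates 1, 4 and 7 exceeded the highest control in 90, 70 and 45 of the 651, and were below the lowest control in 58, 98 and 28 of the 774. Because the split was made from these libraries, the shares are the background for the lists below and nothing is read from them.

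Replicate 7 sided with neither subset over the whole transcriptome. Without it, 1487 genes (12.2%) were higher and 1650 (13.6%) lower in the 4 than in replicates 1 and 4. Of the 1487, replicate 7 lay with replicates 1 and 4 in 473, between the subsets in 178, within the range of the 4 in 420 and above all 4 in 416. Of the 1650 it lay with replicates 1 and 4 in 624, between in 150, within the 4 in 299 and below all 4 in 577. Over the 774 genes lower in the high-score libraries, replicate 7 was the highest of the 3 low-score libraries in 478.

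The lists below were read against the shares of 5.35% higher and 6.36% lower among all genes. Those shares hold for all 7 libraries with TMM scaling. Without replicate 7 they were 12.2% and 13.6%. Among all genes, 1182 were higher and 1348 lower without replicate 1, and 1371 and 1351 without replicate 4. With scaling by library size alone 1183 were higher and 323 lower. List counts given below for such a setting belong beside these counts, and a rise alone is no stronger result. The largest shares higher were in Toll-like receptor and NF-kB signalling (9 of 26 tested), cytokines and chemokines (6 of 21), lymphocyte markers (4 of 14), acute phase proteins (5 of 19) and extracellular matrix (9 of 37), the last 2 being the lists that set the split. The largest shares lower were in nuclear genes of oxidative phosphorylation (36 of 55), fatty acid oxidation (9 of 24), proteasome subunits (11 of 30), mitochondrial ribosomal proteins (23 of 64) and xenobiotic metabolism (6 of 20).

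**Figure D3:**
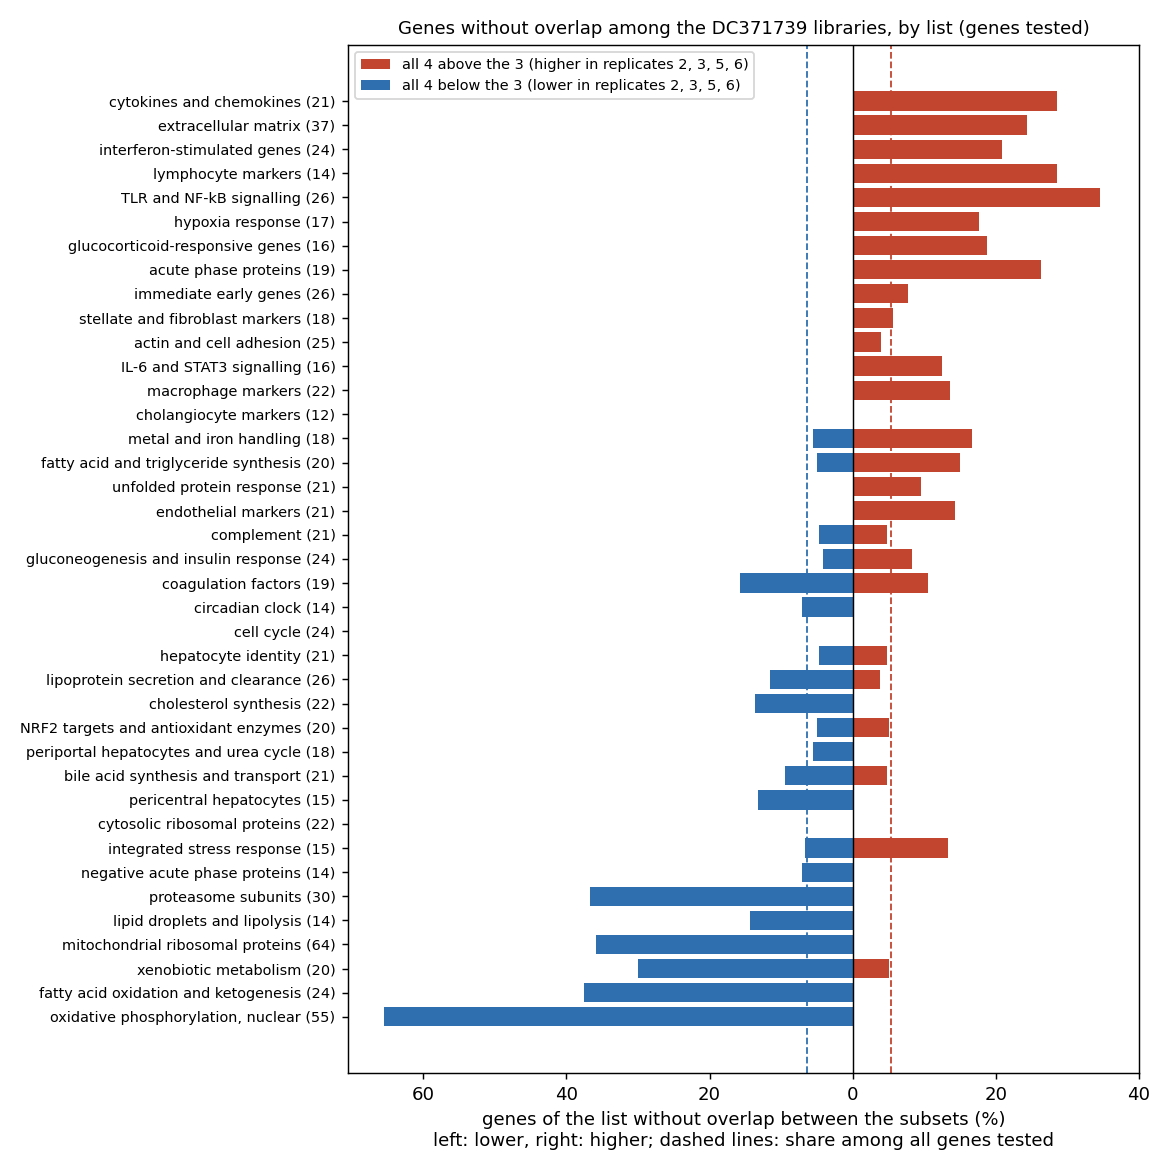
Share of the tested genes of each list (number in brackets, lists with at least 10 tested genes) that lay without overlap higher (red, right) or lower (blue, left) in replicates 2, 3, 5 and 6, ordered by the median difference. Dashed lines mark the shares among all 12166 genes, 5.35% higher and 6.36% lower, and oxidative phosphorylation reaches 65.5% on the left.

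Genes of Toll-like receptor and NF-kB signalling were higher in the high-score libraries, with 24 of 26 differences positive and a median of 0.38. The 9 without overlap were Tlr2, Tnfaip3, Rel, Nfkbie, Ripk2, Tnip1, Nfkb2, Myd88 and Tirap. Tlr2 is also 1 of the 3 genes named to mark the split. The count was 15 without replicate 7, with 1 gene lower, when 12.2% of all genes were higher. It was 16 with scaling by library size alone, when 1183 of all genes were higher. Tnfaip3, which encodes the NF-kB inhibitor A20, read 19.3, 23, 13.9 and 16.8 CPM against 8.01, 6.28 and 5.15 CPM in replicates 1, 4 and 7. Controls lay between 3.66 and 7.9 CPM, so that replicate 1 lay just above the control range and the 4 well above it. Rel, an NF-kB subunit, read 1.94, 1.38, 1.48 and 2.13 CPM against 0.89, 0.492 and 1.01 CPM. The control range was 0.84 to 1.98 CPM, with replicate 6 above it and replicate 4 below it. Nfkbie, an inhibitor of NF-kB, read 2.95, 3.68, 2.83 and 3.14 CPM against 2.05, 1.29 and 1.54 CPM. Of the 9, Tnfaip3, Tnip1 and Nfkbie encode inhibitors of NF-kB, and Tlr2, Myd88 and Tirap a receptor and its adaptors.

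Cytokines and chemokines were higher too, with 6 of 21 separated upward, 0 downward and a median difference of 0.48. Without replicate 1 the count was 11, when 1182 of all genes were higher, against 651 with all 7 libraries. Ccl2, which attracts monocytes, read 4.36, 6.61, 10.7 and 4.92 CPM against 3.01, 2.03 and 2.42 CPM, with controls between 1.56 and 3.42 CPM. Ccl7 and Ccl3, further chemokines of monocytes, differed by 1.31 and 1.14 in mean log2 CPM at levels of at most 3.79 CPM in any DC371739 library. Cxcl10, a chemokine induced by interferon, read 35.7, 52.6, 39 and 57.4 CPM against 27.6, 13.2 and 19.4 CPM. The control range for Cxcl10 was 14.8 to 41 CPM, which 2 of the high-score libraries exceeded. Il1b, an interleukin-1 cytokine gene, read 12.3, 14.5, 21.8 and 12 CPM against 6.91, 6.71 and 8.72 CPM, and Icam1 was the sixth. Tnf overlapped: it read 3.77, 3.79, 5.19 and 3.38 CPM against 4.18, 2.65 and 1.1 CPM. Nlrp3, the inflammasome sensor, read 4.71, 5.52, 7.91 and 4.15 CPM against 1.3, 1.72 and 2.03 CPM, with every control between 1.45 and 2.62 CPM.

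In interleukin-6 and STAT3 signalling, 2 of 16 genes were higher without overlap, Stat3 and Ptpn11, and 0 lower. The count was 4 without replicate 7 or 4 and 5 with scaling by library size alone. Stat3 read 80.6, 97.6, 87.1 and 124 CPM against 63.1, 63.3 and 39.3 CPM, with controls from 34.9 to 65.1 CPM. Socs3, a feedback inhibitor of the pathway, overlapped at 10.4, 8.39, 16.8 and 9.83 CPM against 11.1, 8.43 and 5.5 CPM. Among the acute phase proteins that set the split, Saa3, a serum amyloid A, spread most: it read 267, 412, 254 and 226 CPM against 118, 30 and 132 CPM, and from 9.45 to 164 CPM in controls. Crp, the C-reactive protein, read 478, 491, 494 and 543 CPM against 310, 236 and 302 CPM. The fibrinogen chains Fga, Fgb and Fgg, haptoglobin (Hp) and Serpina1 overlapped between the subsets, with differences between -0.02 and 0.32. The 5 acute phase genes without overlap were Saa3, Steap4, Crp, Lbp and Cd14.

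Interferon-stimulated genes were higher in 5 of 24 (8 with scaling by library size alone, 9 without replicate 1), with 0 lower, and replicate 4 stood low. The level of the list was 4.37, 4.6, 4.58 and 4.66 in replicates 2, 3, 5 and 6 and 4.37, 3.62 and 4.38 in replicates 1, 4 and 7. Gbp2, a guanylate-binding protein, read 79.4, 86.6, 92.9 and 82.4 CPM against 57.9, 24.4 and 74.2 CPM. None of the 5 was above all controls. Control replicate 1 had a list level of 5.39 and read 213 CPM for Gbp2. Without replicate 4 the median difference was 0.17 in place of 0.39.

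Markers of other cell types differed unevenly between the subsets. In bulk tissue, fewer cells of a type and less RNA per cell cannot be told apart. Of 22 macrophage markers, 3 were higher without overlap (Cd14, Slc11a1 and Laptm5; 7 without replicate 7). Cd14 also belongs to the acute phase list that set the split. The macrophage list level was 5.34 to 5.59 in the high-score libraries and 5.39, 5.03 and 5.68 in replicates 1, 4 and 7. The Kupffer cell markers Clec4f, Timd4 and Marco overlapped, with differences of -0.16, -0.02 and 0.07. Of 6 tested neutrophil markers, Fpr1 was higher; S100a8 was at most 2.48 CPM in any DC371739 library. Lymphocyte markers were low throughout, with a list level from 0.09 to 1.17, and Cd5, Gzmb, Zap70 and Ccr7 were higher. Vwf, Pecam1 and Cdh5 were the 3 higher of 21 endothelial markers, Ecm1 the only 1 of 18 stellate and fibroblast markers, and 0 of 12 cholangiocyte markers separated. Acta2, a member of the stellate and fibroblast list, overlapped at 19.9, 11.3, 12.8 and 8.77 CPM against 10.4, 7.51 and 10.6 CPM. The part of these cells in the differences was not tested.

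Of the 37 matrix genes, 8 collagen genes and Loxl2 separated the subsets. Col1a1 read 26, 24.6, 31.3 and 15.4 CPM against 13.5, 13.5 and 6.69 CPM, with controls between 4.64 and 17 CPM. Replicate 6 was the lowest high-score library and lay within the control range. With Col1a1, the collagen genes Col1a2, Col3a1, Col4a1, Col4a2, Col6a2, Col6a3 and Col12a1 and the crosslinking enzyme gene Loxl2 made up the 9 without overlap. The proteoglycans Dcn and Bgn, and Col14a1 and Col5a1, differed by between -0.14 and 0.07 and overlapped. With replicate 7 left aside, 16 of 37 separated.

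Hk2, a hexokinase of the hypoxia list, read 2.18, 3.91, 2.95 and 2.78 CPM against 1.51, 0.862 and 1.41 CPM. Sod2, the mitochondrial superoxide dismutase, read 445, 511, 410 and 502 CPM against 346, 314 and 307 CPM, and the 4 were above the control range of 266 to 335 CPM. Slc39a14, a zinc and iron importer, read 142, 140, 115 and 159 CPM against 88.5, 115 and 79.5 CPM, with replicates 5 and 4 next to each other. Cd44, the hyaluronan receptor, read 17.3, 18.4, 25.1 and 15.3 CPM against 11, 6.65 and 13.2 CPM, with controls up to 9.68 CPM. Over their lists, hypoxia had 3 of 17 genes higher and 0 lower, and metal and iron handling 3 of 18 higher and 1 lower. Of those 18, 3 also belong to the lists that set the split, so that count is in part tied to the choice of libraries. NRF2 targets and antioxidant enzymes had 1 of 20 higher and 1 lower, and actin and cell adhesion 1 of 25 higher and 0 lower. With all 7 DC371739 libraries, Sod2 and Cd44 were thus the single higher genes of their lists. The shares of those 2 lists were below the 5.35% higher and 6.36% lower of all genes. Of 21 complement genes 1 was higher and 1 lower, of 19 coagulation genes 2 and 3, and of 14 clock genes 0 and 1. Of 21 unfolded protein response genes 2 were higher and 0 lower, and of 26 immediate early genes 2 and 0. Replicate 7 decided part of these counts. Without it they were 4 and 3 for complement, 5 and 9 for coagulation and 1 and 1 for the clock. They were then 6 and 0 for the unfolded protein response and 7 and 1 for immediate early genes. For actin and cell adhesion they were 7 and 0 of 25, so that Cd44 was then not alone. For NRF2 targets they were 2 and 4, for hypoxia 5 and 0, and for metal and iron handling 3 and 2. The shares among all genes without replicate 7 were 12.2% higher and 13.6% lower.

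The clearest list outside inflammation was oxidative phosphorylation, the mitochondrial machinery that turns electron transport into ATP. All 55 tested nuclear genes had a negative difference, with a median of -0.29, and 36 were lower in every high-score library than in every low-score one; the share among all genes was 6.36%. The level of the list was 6.54, 6.37, 6.42 and 6.36 in replicates 2, 3, 5 and 6, against 6.72, 6.66 and 6.76 in replicates 1, 4 and 7. Controls lay between 6.57 and 6.94, so that all 4 high-score libraries were below every control and the 3 low-score libraries within their range. By complex, 19 of 30 subunits of complex I, 2 of 3 of complex II, 3 of 7 of complex III, 6 of 7 of complex IV and 6 of 8 of ATP synthase were lower without overlap. Median differences were -0.29, -0.24, -0.16, -0.32 and -0.29 in that order. With scaling by library size alone 23 of the 55 separated, 0 of them upward, and without replicate 7, 45 did.

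Cox8a, a subunit of cytochrome c oxidase, read 73, 79.6, 50.5 and 69.4 CPM against 118, 94.4 and 90.8 CPM, and every control lay between 84.2 and 141 CPM. Ndufa2, of complex I, read 25.1, 25.3, 18.1 and 21.4 CPM against 34, 30.3 and 35.4 CPM, with controls between 33.3 and 55.5 CPM. Both were lower in each high-score library than in any of the other 10 libraries. Ndufb2, also of complex I, had the largest difference of the list, at -1.0, and overlapped, since replicate 4 read 14.2 CPM beside 18.8, 22.7, 9.56 and 18.8 CPM. Cox4i1, the regulatory subunit of cytochrome c oxidase, read 189, 175, 176 and 170 CPM against 231, 216 and 265 CPM. Ndufaf8, an assembly factor of complex I outside the list, read 4.06, 5.57, 2.89 and 3.67 CPM against 10.3, 6.96 and 11.6 CPM.

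The share of counts in the 37 mitochondrially encoded features was 7.71%, 8.2%, 8.29% and 7.89% in replicates 2, 3, 5 and 6, against 8.31%, 8.63% and 14.4% in replicates 1, 4 and 7. Replicates 5 and 1 were thus next to each other, and 5 controls at 7.23% to 9.33% covered the whole range except replicate 7.

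Transcripts of the mitochondrial ribosome, which translates the mitochondrially encoded subunits, and of the proteasome, which degrades ubiquitinated proteins, held lower members too. Of 64 mitochondrial ribosomal genes, 61 had a negative difference and 23 were lower without overlap. Mrps34, of the small subunit, read 21.8, 24.1, 18 and 19.3 CPM against 35.4, 27.3 and 41.2 CPM, with controls from 33.6 to 46.2 CPM. Of 30 proteasome genes, 27 differences were negative and 11 separated, Psma7 with the largest at -0.43, while the list level of replicate 5 (6.66) was above that of replicate 4 (6.62). With scaling by library size alone, 9 of 64 mitochondrial ribosomal genes and 1 of 30 proteasome genes were lower without overlap. In that setting 323 of all 12166 genes were lower, against 774 with TMM, so the proteasome share was then close to that of all genes. The immunoproteasome subunits Psmb8 and Psmb9 were among the 3 with a positive difference, at 0.26 and 0.24, and overlapped. Of 77 cytosolic ribosomal proteins listed, only 22 had a symbol in the deposited table and were tested, against 64 of 92 for the mitochondrial ribosome. Of the 22, 0 separated although all 22 differences were negative, with a median of -0.11.

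**Figure D4:**
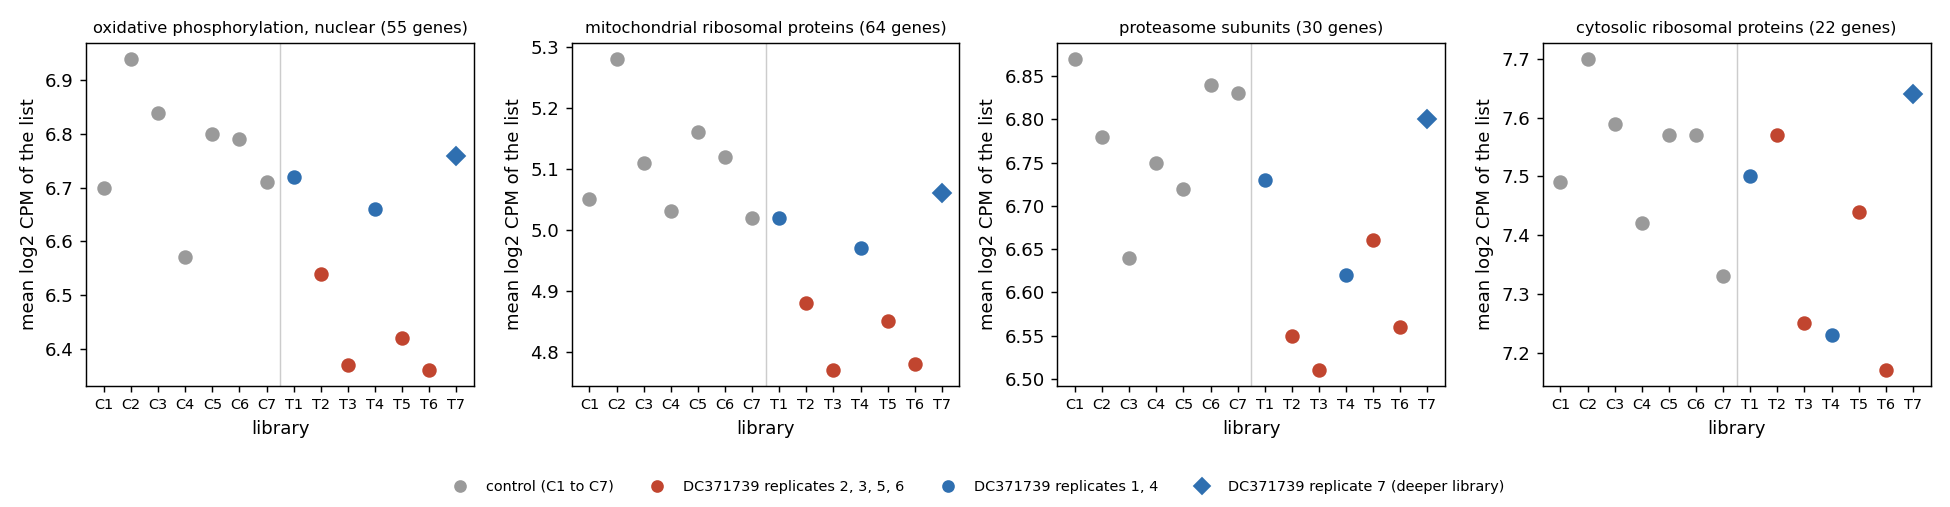
Mean log2 CPM of 4 lists in each of 14 libraries, C for control and T for DC371739, each panel on its own axis that does not start at 0. Oxidative phosphorylation and mitochondrial ribosomal proteins are lowest in replicates 2, 3, 5 and 6 (6.36 to 6.54 and 4.77 to 4.88), while in the proteasome panel replicate 5 lies above replicate 4 and in the cytosolic ribosome panel the subsets overlap.

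Exon length moved with these lists. The median summed exon length was 1996 bases over all genes, 2410 among the 651 higher and 1316.5 among the 774 lower, and it was 686 bases for oxidative phosphorylation, 1059.5 for the mitochondrial ribosome, 1206 for the proteasome and 4909 for the matrix list. Among genes under 1000 bases 3.93% were higher and 11.1% lower, and among those of 4000 bases or more 7.25% and 1.16%. Within those length classes the oxidative phosphorylation genes were lower in 28 of 43 under 1000 bases and in 8 of 11 from 1000 to under 2000 bases, where 9.01% of all genes were. The count-weighted mean exon length was 2263, 2315, 2242 and 2333 bases in replicates 2, 3, 5 and 6, against 2213, 2253 and 2155 bases in replicates 1, 4 and 7, and 2115 to 2223 bases in controls. The part of transcript length in the differences was not tested.

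Fatty acid oxidation, which takes place in mitochondria and peroxisomes, had 9 of 24 genes lower, 0 higher and a median difference of -0.22. With scaling by library size alone 5 were lower, with a median of -0.12, and without replicate 1 the count was 13. Acaa2, a mitochondrial thiolase, read 983, 970, 1060 and 1000 CPM against 1240, 1250 and 1500 CPM, and Etfa, an electron transfer flavoprotein, read 324, 297, 340 and 315 CPM against 375, 399 and 502 CPM. Cpt1a, which controls the entry of long-chain fatty acids into mitochondria, overlapped, with a difference of 0.14. Of 20 genes of xenobiotic metabolism, 6 were lower (Sult1a1, Cyp1a2, Gstt1, Ugt2b1, Ugt1a1 and Aldh1a1) and the transporter Abcc2 higher, and with scaling by library size alone 3 were lower. Sult1a1, a sulphotransferase, read 76, 54.4, 51.6 and 94.7 CPM against 97.1, 108 and 165 CPM. Cebpa, a transcription factor of hepatocyte identity, read 22.7, 29.2, 20 and 25.4 CPM against 45.8, 36.1 and 51.1 CPM, below the control range of 35 to 63.4 CPM. Of the other 20 hepatocyte identity genes 1 (Tat) was higher and 0 were lower.

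Of 20 genes of fatty acid and triglyceride synthesis, 3 were higher without overlap (Pnpla3, Scd1 and Lpin1) and 1 lower (Agpat2). The median difference was 0.16, and -0.02 without replicate 7. The list level was 7.5 to 7.83 in the high-score libraries, 7.03 to 7.73 in the low-score ones and 7 to 7.89 in controls. Pnpla3, a lipid droplet protein regulated by diet, read 178, 176, 251 and 128 CPM against 84.2, 99 and 43.3 CPM, and Scd1, the stearoyl-CoA desaturase, 2680, 2260, 2710 and 2140 CPM against 1830, 2070 and 736 CPM. Acly, which makes cytosolic acetyl-CoA, overlapped at 165, 163, 292 and 64.5 CPM against 28.7, 96.5 and 16.6 CPM. Replicate 7 was the lowest DC371739 library for all 3 genes. Lpin1, a phosphatidate phosphatase, read 115 CPM in replicate 2 and 32.6, 23.8 and 27.3 CPM in replicates 3, 5 and 6, against 19.1, 22.8 and 20.9 CPM.

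Outside the 2 lists that set the split, the largest positive difference without overlap was in A1bg, a plasma glycoprotein of the immunoglobulin superfamily, at 2.75 in log2. It read 40.5, 21.7, 78 and 25.4 CPM against 4.38, 5.36 and 6.34 CPM, and 2.53 to 45.4 CPM in controls. Olfm4, a secreted olfactomedin, read 11.3, 22.6, 27.2 and 24.9 CPM against 6.78, 2.09 and 4.32 CPM, with controls up to 8.07 CPM. Dnm1, a dynamin, differed by 1.76, Serpina5, the protein C inhibitor, by 1.47, Aadacl3 by 1.45, Tgm1, a transglutaminase, by 1.42 and Nynrin by 1.31. Tgm1 was above all controls (at most 4.66 CPM) in all 7 DC371739 libraries, from 5.86 to 34.5 CPM. Serpina5 went the other way: replicates 1, 4 and 7 read 32, 58.8 and 40.9 CPM, below all controls (90.6 to 166 CPM), and the high-score libraries 103, 148, 131 and 97.2 CPM within their range.

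The largest negative differences were in large part set by replicate 7. Scand1, a SCAN domain protein, read 2.77, 3.1, 3.78 and 3.44 CPM against 9.11 and 6.34 CPM in replicates 1 and 4 and 42.3 CPM in replicate 7. H2aj, a histone variant, read 19.5 to 23.8 CPM in the 4, 37.4 and 24.4 CPM in replicates 1 and 4, and 165 CPM in replicate 7. Fdx1, the mitochondrial ferredoxin, read 31 to 33 CPM, 50.7 and 43 CPM, and 167 CPM. Replicate 7 stood likewise above the other 6 for Chrna1, Tpgs1, Chchd10, Zfp771 and Imp3. Cyp4b1, a cytochrome P450, did not follow replicate 7: it read 36, 125, 90.8 and 106 CPM against 183, 205 and 143 CPM.

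The 4 high-score libraries were not alike. Of the 651 genes higher, replicate 3 was the highest in 182 (28%), replicate 6 in 181 (27.8%), replicate 5 in 163 (25%) and replicate 2 in 125 (19.2%). These shares were close to an even split but for replicate 2. Of the 774 lower, replicate 3 was the lowest in 290 (37.5%) and replicate 2 in 138 (17.8%). Replicate 5 read highest for Timp1, Col1a1, Ccl2, Nlrp3 and A1bg, and replicate 3 for Saa3, Tlr2 and Tnfaip3. Per1, a clock gene that glucocorticoids induce, read 34.6 and 31.6 CPM in replicates 2 and 3 and 4.23 to 6.14 CPM in the other 5 DC371739 libraries, with controls between 3.24 and 8.47 CPM. The level of the glucocorticoid-responsive list was 5.48 and 5.64 in replicates 2 and 3 and 4.9 to 5.3 in the other 5. In controls it was 4.99 to 5.51. Of its 16 genes, Per1 among them, 3 (18.8%) were higher without overlap, against 5.35% of all genes, and 0 lower. Among the 16, 1 also belongs to a list that set the split. Fkbp5 and Sgk1, also listed, did not set replicates 2 and 3 apart as far as Per1 did. Fkbp5 read 14.4 and 17.1 CPM against 9.36 to 11.4 CPM, and Sgk1 44.2 and 87.2 CPM against 59.8 to 116 CPM. Among the low-score libraries, replicate 1 was the highest of the 3 in 267 (41%) of the 651 genes higher, replicate 4 in 206 and replicate 7 in 178. Over the 774 genes lower, replicate 4 was the lowest of the 3 in 319, replicate 1 in 305 and replicate 7 in 150. Replicate 1 was above all controls for Steap4, as it was with replicate 4 for Tlr2.

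The control libraries were not used for the split, and in them each gene was tested for a slope on the acute phase score, in log2 per unit of score, with a term for the deeper libraries. Of 11173 genes outside the score list, 1 had a positive slope (0.00895%) and 0 a negative one (0%) at an adjusted p under 0.05, by edgeR's quasi-likelihood test with Benjamini-Hochberg adjustment. At an unadjusted p under 0.05 there were 225 positive and 263 negative, and DESeq2 called 10 and 7. The called gene, ENSMAUG00000013260, has no symbol in the deposited table and was named after its value was seen. Its slope was 3.88 ± 0.37 (SE, n = 7) with an adjusted p of 0.00873 in edgeR, and the call was lost without control replicate 3 or 4. It read 194 and 120 CPM in control replicates 4 and 5, 33.8 to 71.4 CPM in the other 5, and 174, 202, 353 and 160 CPM against 75.9, 56.1 and 113 CPM in the DC371739 subsets. Tlr2 had a slope of 0.82 ± 0.65 (SE, n = 7; adjusted p = 0.996 in edgeR) and A1bg one of 3.71 ± 0.68 (SE, n = 7; adjusted p = 0.566 in edgeR).

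Most of the genes that separated the DC371739 subsets had a slope of the same sign over all 7 controls. Of 546 higher genes tested there, outside the acute phase and matrix lists, 396 (72.5%) had a positive slope, and of 760 lower genes 209 (27.5%) did, against 48.4% of all genes. The order rested on control replicate 4, which had the highest score, at 9.33. Without it the shares were 52.9% and 48.6%, against 49.4% of all genes, whereas without any other control they were 66.1% to 76.9% and 24.6% to 29.2%. Over the lists, the matrix genes sloped upward in 31 of 35, with a median slope of 0.66 (0.92 without control replicate 4). Oxidative phosphorylation sloped downward in 51 of 55, with a median of -0.40, and of -0.03 without control replicate 4. Macrophage markers sloped upward in 18 of 21 (median 0.60, and 0.01 without it). Toll-like receptor and NF-kB genes had 14 upward and 12 downward, with a median of 0.01. Fatty acid oxidation sloped upward in 21 of 24, opposite to its order among the DC371739 libraries, with a median of 0.32 and of 0.08 without control replicate 4. No gene of these lists passed the adjusted threshold in edgeR. At an unadjusted p under 0.05, 11 matrix genes sloped upward and 6 oxidative phosphorylation genes downward.

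**Figure D5:**
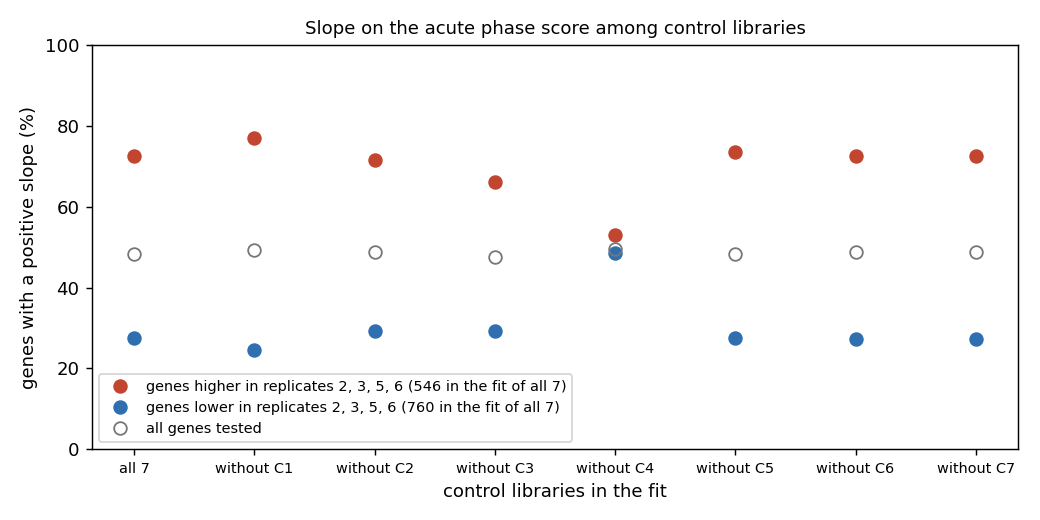
Percentage of genes with a positive slope on the acute phase score among control libraries, for genes higher (red) or lower (blue) in replicates 2, 3, 5 and 6 and for all genes tested (open), with all 7 controls and with each left out in turn. The sets lie at 72.5% and 27.5% with all 7 and at 52.9% and 48.6% without control replicate 4.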

How the data were processed

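Liver RNA of 14 hamster samples was sequenced, and the libraries held 13672589 to 23948628 counts. The tools credited in the submitters' processing notes are edgeR, featureCounts 2.0.0 and HISAT2 2.2.1, and their settings, the build and the strand setting are not stated. The labels' protocols name both a TruSeq and a NEBNext kit. The authors deposited whole-number counts for 22283 Ensembl genes, with exon coordinates. Their second deposited table holds FPKM per library and the authors' log2 fold changes and p-values, and only its gene symbols were used. Per the file headers, it pairs 10023 genes with a symbol, and the reference gene table matched 0 of the Ensembl identifiers.

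Counts were filtered with filterByExpr (minimum count 10) and scaled by TMM in edgeR 4.0.16 (R 4.3.3), which left 12166 genes, 10011 with a symbol. Log2 CPM used a prior count of 2. The subsets were compared by overlap alone. Slopes in controls were tested with edgeR's robust quasi-likelihood F-test on 4 residual degrees of freedom, an adjusted p under 0.05 being called. Since no label ties samples to separate animals, a p-value here reflects sample-to-sample spread that may be technical. No pair of DC371739 libraries agreed within sampling noise (of 21 pairs, the closest had a chi-square of 11.2 per degree of freedom). Scripts were tested on simulated counts.

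The members and the 42 gene lists were chosen with earlier results of these data known. Named genes were the 3 markers, the 12 largest differences per direction outside the lists that set the split (symbol, no overlap, mean log2 CPM of at least 1), the 4 largest differences of each list and the smallest slope p-values. Other genes were named after their values were seen, and some genes that the rule names are not reported here. Alternatives were other scalings (RLE, upper quartile, library size alone), other filters, DESeq2 1.42.0, another score, no class term, and leaving out libraries.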

Additional observations from a re-analysis of the deposited data

Results flagged for a closer look

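Among 134 sets of 7 values (each list level and each of the most different genes, in each treatment group), 15 (11.2%) held a library whose gap to its neighbour took up an unusually large part of the range; chance flags about 1 in 20. The genes among these sets were chosen for their large differences in the same DC371739 libraries, so the share cannot be read against that rate. Of the 15, 8 were genes in which DC371739 replicate 7 stood above the other 6: Scand1 at 42.3 CPM, Chrna1 at 13.5, Tpgs1 at 26.6, H2aj at 165, Fdx1 at 167, Chchd10 at 240, Zfp771 at 22 and Imp3 at 38 CPM. Replicate 7 is the deeper DC371739 library with 14.4% mitochondrial counts, and the part of that in these values was not tested. Control replicate 4, the control of highest acute phase score, stood above the other 6 controls for A1bg at 45.4 CPM (others 2.53 to 12.3), Dnm1 at 6.84 CPM and Aadacl3 at 12 CPM.

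The level of the interferon list was 3.62 log2 CPM in DC371739 replicate 4 (others 4.37 to 4.66) and 5.39 in control replicate 1 (others 4.14 to 4.32). The lipoprotein list stood at 7.95 in DC371739 replicate 2 (others 7.75 to 7.84). The negative acute phase list stood at 11.15 in control replicate 2 (others 10.88 to 10.99).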

How the results depend on the processing

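With scaling by library size alone, 1183 genes were higher and 323 lower without overlap, against 651 and 774; RLE or upper-quartile factors and other expression filters kept both counts within 1.5 times. Leaving out each DC371739 library in turn, with filter and scaling repeated, gave 857 to 1494 higher and 928 to 1653 lower, the most without replicate 7, with 1182 and 1348 without replicate 1 and 1371 and 1351 without replicate 4; fewer libraries leave fewer values that can overlap. All 260 recomputed differences of named genes kept their sign. Scaling by library size alone raised the median difference of all genes from 0.02 to 0.11 and the list differences with it. The shift was flagged as large for 12 lists, although the level of each ranged more widely than that over the DC371739 libraries. Their differences were then 0.23 (complement), 0.21 (coagulation), -0.02 (negative acute phase proteins), -0.19 (oxidative phosphorylation), -0.11 (mitochondrial ribosome), -0.06 (proteasome), 0.12 (lipoproteins), -0.1 (fatty acid oxidation), -0.07 (xenobiotic metabolism), 0.1 (NRF2 targets), 0.26 (unfolded protein response) and 0.21 (clock). Of the control slopes, library size alone, the extracellular matrix score and the fit without the 2 control libraries farthest in score (replicates 4 and 3) each called 0 positive genes; no expression filter called 2 positive and 2 negative, and DESeq2 10 and 7. Leaving out each control gave 0 to 3 positive and 0 to 1 negative calls, with 0 positive without replicate 3 or 4. No paired analysis was possible because the subsets lie within 1 treatment group, where each replicate number occurs once, and the slopes use the control group alone. Genes near 1 CPM, such as Cd5 and Rel, rest on few reads.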

Other observations

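Of 26 genes of lipoprotein secretion and clearance, 3 (11.5%) were lower without overlap, against 6.36% of all genes, and 1 was higher, with a median difference of -0.01. With scaling by library size alone 2 were higher and 2 lower. Apoe read 20300, 16100, 19400 and 17100 CPM in replicates 2, 3, 5 and 6 against 23500, 20600 and 30900 CPM in replicates 1, 4 and 7, with controls from 22400 to 30600 CPM. Apoa2, an apolipoprotein of high-density lipoprotein, and Apom, a carrier of sphingosine-1-phosphate, were lower without overlap as well, with differences of -0.48 and -0.35. Lipg, the endothelial lipase, was higher and read 12, 4.42, 2.66 and 4.74 CPM against 2.46, 2.59 and 1.37 CPM, so that replicate 2 stood apart and replicate 5 lay next to replicate 4. Cyp7a1, which catalyses the first step from cholesterol to bile acids, overlapped at 23.4, 26.9, 66.2 and 55.7 CPM against 12.6, 31.7 and 50.8 CPM.

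Cell cycle genes did not follow the split. Their list level was 3.09 and 3.23 in DC371739 replicates 3 and 7, 1.82 in replicate 4 and 2.3 to 2.56 in the others, with controls from 2.4 to 2.68, and 0 of 24 genes separated the subsets. Cd163, a scavenger receptor of resident macrophages, read 4.83, 1.84, 3.95 and 5.33 CPM against 3.9, 8.43 and 13.1 CPM.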
